A study of Homo sapiens with 9 samples.

Results

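The expression of 10 plasma-membrane amino acid transporter genes was examined in HCT116, a human cell line grown from a colon carcinoma. The genes, SLC7A11, SLC7A5, SLC3A2, SLC7A1, SLC1A4, SLC1A5, SLC38A1, SLC38A2, SLC6A9 and SLC43A1, were listed by name and matched to the Ensembl identifiers of the gene tables, and all 10 of 10 were found among the 58395 genes listed. All 9 RNA-seq libraries came from cells with a short hairpin RNA against STBD1 (shSTBD1), a glycogen-binding protein that links glycogen to autophagy through a LIR motif, the short sequence that binds LC3. Each of 3 groups held 3 libraries. The plvx neo group carried the empty lentiviral vector, the STBD1 WT group carried wild-type STBD1 made resistant to the hairpin, and the STBD1 W203C group carried the same construct with the tryptophan of the LIR motif changed to cysteine. The groups were stable, drug-selected lentiviral lines. A difference between groups is therefore a difference between 3 lines of 1 parental cell line, and the controls carry the hairpin too. The p-values and intervals below measure spread among libraries of a line and cannot cover spread between independently made lines.

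The names of the deposited tables, and the per-library table among the supplements of the study, name the STBD1 WT and STBD1 W203C libraries in the opposite way to the sample labels, which were followed here. STBD1 WT and STBD1 W203C therefore stand throughout for the libraries so labelled, and if the 2 labels were exchanged, each direction between the constructs would turn around and their comparisons with plvx neo would be swapped. The level of STBD1 does not settle this, because it is raised in both: the summed TPM (transcripts per M transcripts, with M for mega, a level scaled by transcript length) of STBD1 and of FAM47E-STBD1, the read-through gene that contains it, was 4.12, 4.80 and 5.62 in the plvx neo libraries, 52.3, 54.4 and 57.0 in those labelled STBD1 WT and 43.5, 46.8 and 47.9 in those labelled STBD1 W203C. The constructs also differed in level. In STBD1 W203C vs STBD1 WT the log2 fold change was -0.28 for STBD1 (edgeR quasi-likelihood test, adjusted p = 0.00945). It was -0.27 for FAM47E-STBD1 (adjusted p = 0.00113). The changed residue and the level of the construct therefore cannot be told apart in this comparison. Libraries held 16.9 to 23.3 M expected counts. Markers of colon epithelium (EPCAM, CDH1, KRT8, KRT18, KRT19 and CLDN4) summed to 3332 to 4029 TPM in the 9 libraries. Endothelial markers summed to at most 0.47 TPM. Fibroblast markers summed to 12.8 to 21.8 TPM, nearly all of it COL1A1. Leukocyte markers were mostly CD68, with a sum of 2.25 to 2.74 TPM in the plvx neo libraries, 4.28 to 7.46 in those labelled STBD1 WT and 1.90 to 2.26 in those labelled STBD1 W203C.

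Cells take up amino acids through carriers, many of which exchange one amino acid for another or use the sodium gradient to concentrate them. SLC7A5 (LAT1), which brings in leucine and other large neutral amino acids, and SLC7A11 (xCT), which brings in cystine in exchange for glutamate, are light chains that reach the membrane only when bound to the heavy chain SLC3A2 (4F2hc, CD98). SLC1A5 (ASCT2), SLC38A1 (SNAT1) and SLC38A2 (SNAT2) carry glutamine and small neutral amino acids. When amino acids run short, the kinase GCN2 raises translation of the transcription factor ATF4, which binds C/EBP-ATF response elements (CAREs) near the start sites of transporter and amino acid synthesis genes. NRF2, the factor of the oxidative stress response, binds antioxidant response elements (AREs) and is known to act on SLC7A11.

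Promoter sequence was examined because several of these genes moved together and because ATF4 and NRF2 are known regulators of transporter genes. RefSeq promoter windows (build GRCh38.p14, 250 bases before to 50 bases after each annotated start) matched 9 of the 10 genes by symbol, with 16 windows. SLC7A11 had no match. The core letters of the CARE, TGATGNAA, were found on either strand in 5 of the 16 windows, in 5 different genes, against 3.62% of all 35116 windows of the same length and 4.46% of the 27305 genes with a window. The core letters of the ARE, TGACNNNGC, which overlapped no CARE match in these windows, were found in 4 windows of 4 genes (SLC7A5, SLC3A2, SLC7A1 and SLC1A5), against 13.3% of all windows and 16.1% of genes. The 30 bases around each CARE match are shown because this motif stood in 5 of the genes whose levels are given below. They are read 5′ to 3′ along the strand of the gene, with the match in capitals.
SLC3A2: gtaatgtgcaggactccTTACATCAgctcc
SLC7A1: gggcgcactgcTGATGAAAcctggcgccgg
SLC1A4: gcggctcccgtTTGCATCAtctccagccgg
SLC1A5: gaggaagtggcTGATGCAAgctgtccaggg
SLC38A1: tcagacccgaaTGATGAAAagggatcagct
The SLC3A2 stretch is chr11:62881719-62881748 (plus strand), with its match on the strand opposite to the gene, at bases 38 to 45 after the start of the first of 3 windows. The SLC7A1 stretch is chr13:29595663-29595692 (minus strand), with its match at bases 8 to 15 after the start. The SLC1A4 stretch is chr2:64989381-64989410 (plus strand), with its match on the opposite strand, from base -7 to base 1 of the second window. The SLC1A5 stretch is chr19:46784893-46784922 (minus strand), with its match from base -97 to base -90 of the third window, which starts inside the gene. The SLC38A1 stretch is chr12:46266502-46266531 (minus strand), with its match across the start of the first of 2 windows, from base -4 to base 4. The windows that hold the SLC3A2, SLC1A4 and SLC38A1 matches also start inside the annotated gene. The windows of SLC7A5, SLC38A2, SLC6A9 and SLC43A1 held no CARE match. The genes are a chosen list of a kind that ATF4 is known to act on, and genes with several windows have more chances of a match. The shares therefore only describe this list and were not tested. A match is a string of letters and not a measured binding site, and no match says only that these letters are not in the window.

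**Figure D1:**
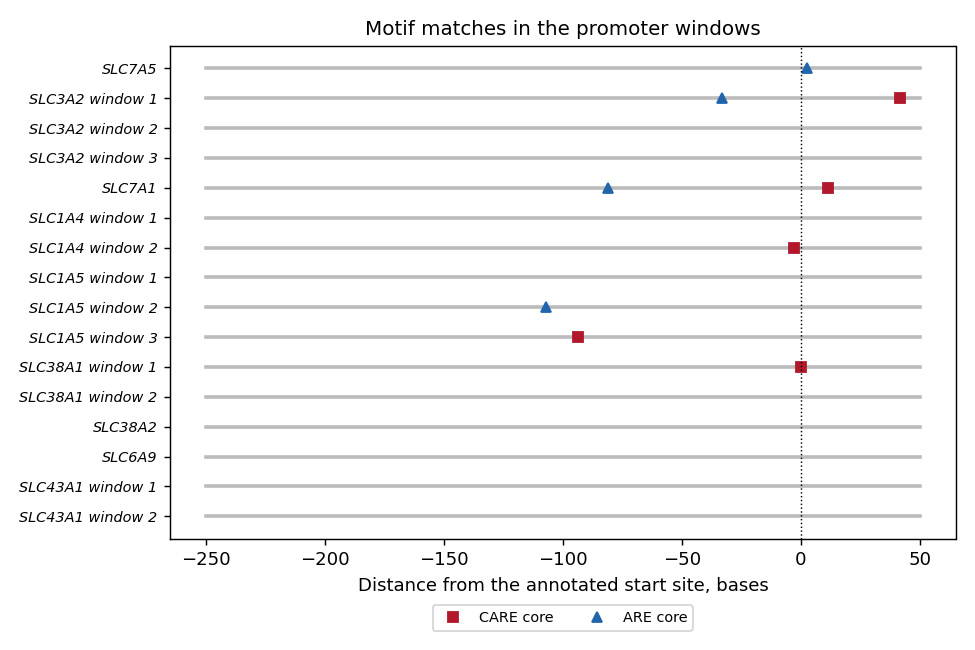
Motif matches in the 16 promoter windows of 9 transporter genes. The horizontal axis is the distance in bases from the annotated start site, grey lines are the windows, squares are matches to the CARE core and triangles are matches to the ARE core. 5 windows hold a square and 4 hold a triangle, and the windows of SLC38A2, SLC6A9 and SLC43A1 hold neither.

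The levels of the 10 genes spanned a wide range and kept much the same order in each group. They are levels of RNA from whole cultures, in which fewer cells with a transcript and less of it per cell cannot be told apart. In the plvx neo libraries the mean TPM ran from 309 ± 8.62 for SLC3A2 down to 2.19 ± 0.367 for SLC1A4 (SD, n = 3). SLC3A2, SLC38A2 (275 ± 33.4), SLC7A5 (239 ± 0.272) and SLC1A5 (131 ± 2.56) stood highest. SLC38A1 (47.1 ± 4.24), SLC7A1 (24.4 ± 0.775) and SLC7A11 (8.02 ± 1.05) followed, and SLC6A9 (3.00 ± 0.135), SLC43A1 (2.31 ± 0.114) and SLC1A4 were lowest. Among neighbours in this order, SLC3A2 overlapped SLC38A2 and SLC43A1 overlapped SLC1A4, and the other neighbours did not overlap over the 3 libraries. In the libraries labelled STBD1 WT, SLC38A2 came first at 293 ± 20.4 TPM and did not overlap SLC3A2 at 214 ± 4.15. In those labelled STBD1 W203C, SLC38A2 (315 ± 24.2) and SLC3A2 (300 ± 26.5) overlapped. The 3 lowest genes changed places between groups, and neighbours in rank among them overlapped in all but 1 case, SLC6A9 over SLC43A1 in the plvx neo libraries. The TPM of the 10 genes summed to 1004, 1070 and 1050 in the plvx neo libraries, 858, 813 and 859 in the libraries labelled STBD1 WT and 1029, 1047 and 1079 in those labelled STBD1 W203C. The libraries labelled STBD1 WT were the 3 lowest, and the other groups overlapped.

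**Figure D2:**
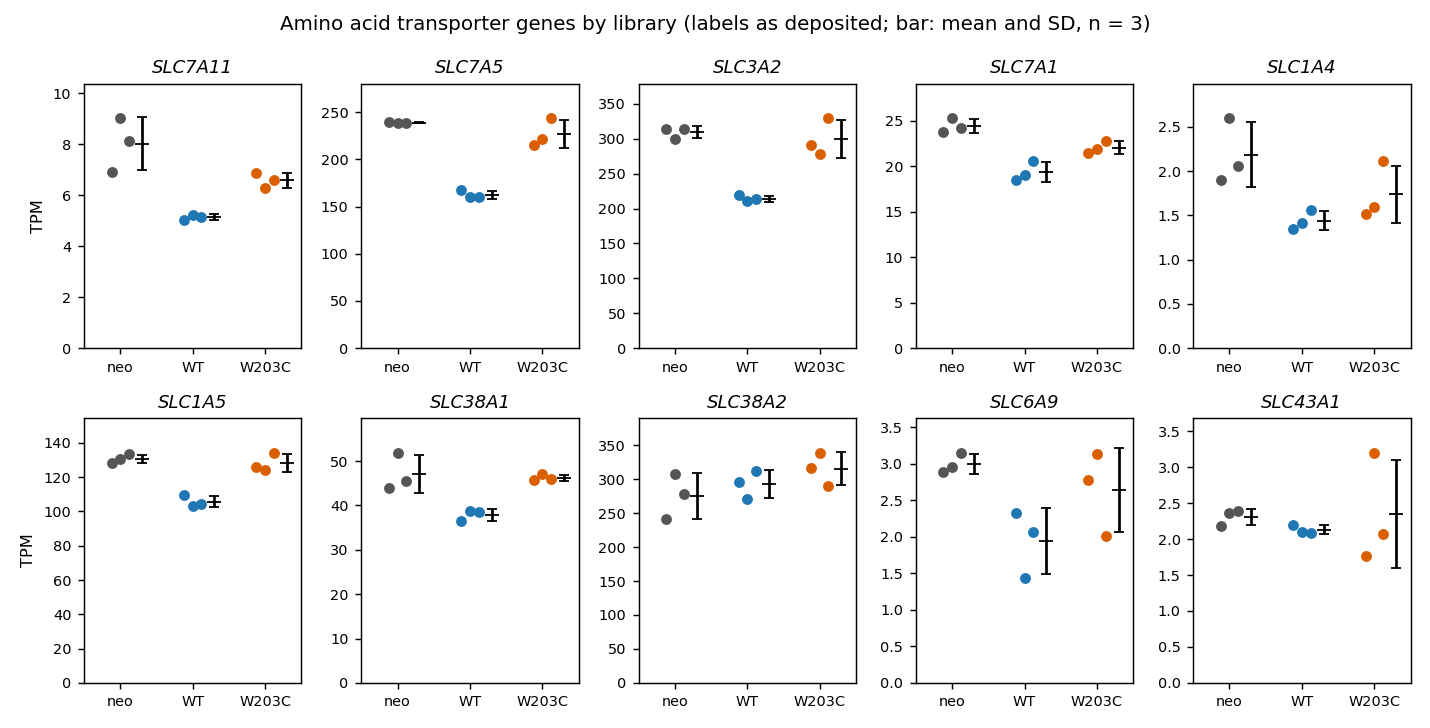
TPM of each of the 10 transporter genes in the 9 libraries, with a separate linear axis from 0 for each gene. Points are libraries, grouped as labelled, and the bars give the mean and SD (n = 3). The 3 libraries labelled STBD1 WT lie below the 3 plvx neo libraries in 8 panels, and overlap them for SLC38A2 and SLC43A1.

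In STBD1 WT vs plvx neo, 8 of these 10 genes were lower in the libraries labelled STBD1 WT and none was higher (edgeR quasi-likelihood test, adjusted p below 0.05 over the 15289 genes tested). Of all genes tested, 13.9% were called lower and 13.9% higher. The median log2 fold change of the 10 genes was -0.40, against 0.0061 over all genes tested. The 10 genes were chosen with earlier results of these data known, so these contrasts only describe a chosen list. The 8 were the heavy chain SLC3A2, its light chains SLC7A5 and SLC7A11, the cationic carrier SLC7A1, the neutral exchangers SLC1A4 and SLC1A5, the glutamine carrier SLC38A1 and the glycine carrier SLC6A9. SLC38A2 and SLC43A1, which carries leucine and other large neutral amino acids without a heavy chain, did not pass the test.

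Between the constructs, in STBD1 W203C vs STBD1 WT, 6 of these 10 genes were higher in the libraries labelled STBD1 W203C and none was lower. Of the 15052 genes tested, 14.5% were called higher and 13.4% lower. The median log2 fold change of the 10 genes was 0.22, against -0.0078 over all genes tested. The 6 were SLC7A11, SLC7A5, SLC3A2, SLC7A1, SLC1A5 and SLC38A1. This comparison shares the libraries labelled STBD1 WT with the preceding one, so the directions of the pair are not independent.

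Against plvx neo, 2 genes were lower (SLC7A11 and SLC7A1) and 1 was higher (SLC38A2) in the libraries labelled STBD1 W203C (STBD1 W203C vs plvx neo). Of the 15081 genes tested, 2.67% were called lower and 3.03% higher. The median log2 fold change of the 10 genes was -0.14, against -0.0031 over all genes tested. The count ranged from 0 to 5 when single libraries were left out, with 0 without STBD1 W203C replicate 2, 1 without STBD1 W203C replicate 1 and 5 without STBD1 W203C replicate 3.

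**Figure D3:**
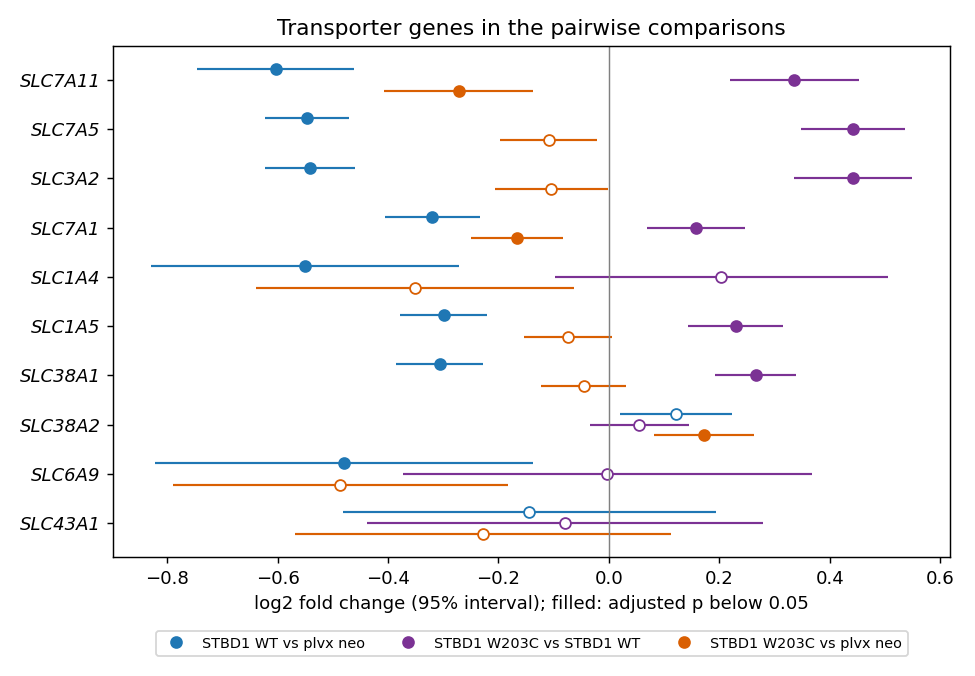
log2 fold change of each transporter gene in the 3 pairwise comparisons, with its 95% interval from the edgeR quasi-likelihood fit. Filled points have an adjusted p below 0.05 over all genes tested. 8 genes have a filled point left of 0 for STBD1 WT vs plvx neo, and 6 have a filled point right of 0 for STBD1 W203C vs STBD1 WT.

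SLC7A5 (ENSG00000103257, chromosome 16, 87830023 to 87869507, minus strand) was at 239, 239 and 239 TPM in the plvx neo libraries, 168, 160 and 160 in those labelled STBD1 WT, and 216, 222 and 244 in those labelled STBD1 W203C. The libraries labelled STBD1 WT were below all 6 others. In STBD1 WT vs plvx neo SLC7A5 fell by 0.55 on the log2 scale, with an SE of 0.0366 (adjusted p = 1.14e-09). Between the constructs, STBD1 W203C vs STBD1 WT, it was 1.36-fold higher, a log2 fold change of 0.44 with an SE of 0.0453 (adjusted p = 3.53e-07). Its STBD1 W203C and plvx neo libraries overlapped, and a log2 fold change of -0.11 (95% interval -0.20 to -0.022) did not pass (adjusted p = 0.142), although it did without STBD1 W203C replicate 3 (adjusted p = 0.00157). SLC7A5P1 and SLC7A5P2 are pseudogene copies of SLC7A5 that could share its reads, and were at 3.03 to 6.97 and 1.87 to 8.89 TPM. SLC7A5P2 fell by 1.24 in STBD1 W203C vs STBD1 WT (adjusted p = 0.0194), against the direction of SLC7A5, and no other comparison of these copies passed. Adding their counts to those of SLC7A5 left its log2 fold changes at -0.54, 0.44 and -0.11 in the 3 comparisons.

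SLC3A2 (ENSG00000168003, chromosome 11, 62856004 to 62888880, plus strand), the heavy chain that SLC7A5 and SLC7A11 need, was at 314, 299 and 315 TPM in the plvx neo libraries. It was at 219, 211 and 213 in those labelled STBD1 WT, and at 291, 279 and 330 in those labelled STBD1 W203C. As for SLC7A5, the libraries labelled STBD1 WT were the 3 lowest and the other groups overlapped. The log2 fold change was -0.54 with an SE of 0.0389 in STBD1 WT vs plvx neo (adjusted p = 3.19e-09) and 0.44 with an SE of 0.0515 in STBD1 W203C vs STBD1 WT (adjusted p = 2.02e-06). Against plvx neo the STBD1 W203C value was -0.10 (95% interval -0.21 to -0.0023, adjusted p = 0.247), and passed without STBD1 W203C replicate 3 at a log2 fold change of -0.19 (adjusted p = 0.00222).

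SLC7A11 (ENSG00000151012, chromosome 4, 138164097 to 138242349, minus strand), the cystine carrier that feeds glutathione synthesis, was at 6.92, 9.02 and 8.12 TPM in the plvx neo libraries, 5.01, 5.24 and 5.14 in those labelled STBD1 WT and 6.87, 6.27 and 6.61 in those labelled STBD1 W203C. The 3 groups did not overlap, with STBD1 W203C between the others, although the highest STBD1 W203C library lay just under the lowest plvx neo library. Its fall of 0.60 on the log2 scale in STBD1 WT vs plvx neo was the largest of the 10, with an SE of 0.0680 (adjusted p = 1.55e-06). It was 0.34 higher in STBD1 W203C vs STBD1 WT (SE 0.0563, adjusted p = 1.26e-04). Against plvx neo the libraries labelled STBD1 W203C were lower, and SLC7A11 fell by 0.27 (SE 0.0654, adjusted p = 0.0127), a call that did not pass without plvx neo replicate 2 (adjusted p = 0.0965) or without STBD1 W203C replicate 2 (adjusted p = 0.0910). The antisense gene SLC7A11-AS1, whose exons overlap it, was at 0.03 to 0.64 TPM.

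SLC3A2 and its light chains were compared as a ratio, since the heavy chain is shared among them. The TPM of SLC3A2 divided by the summed TPM of its 6 possible light chains (SLC7A5, SLC7A6, SLC7A7, SLC7A8, SLC7A10 and SLC7A11) was 1.19, 1.13 and 1.17 in the plvx neo libraries, 1.16, 1.16 and 1.17 in those labelled STBD1 WT and 1.21, 1.12 and 1.22 in those labelled STBD1 W203C. The groups overlapped in every comparison, and two-sided exact permutation tests gave p = 0.9 for STBD1 WT against plvx neo, 0.4 for STBD1 W203C against STBD1 WT and 0.6 for STBD1 W203C against plvx neo. With 3 against 3 libraries no p below 0.1 is possible. The summed light chains themselves went from 264 to 269 TPM in the plvx neo libraries to 182 to 188 in those labelled STBD1 WT, with 241 to 270 in those labelled STBD1 W203C. SLC7A5 made up 87.6% to 90.8% of that sum and SLC7A11 a mean of 2.61% to 3.02% in the 3 groups, so the ratio is mainly that of SLC3A2 to SLC7A5. Without SLC7A5 among the partners the mean ratio was 11.6, 9.83 and 11.6 in the plvx neo, STBD1 WT and STBD1 W203C libraries, and the groups again overlapped.

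**Figure D4:**
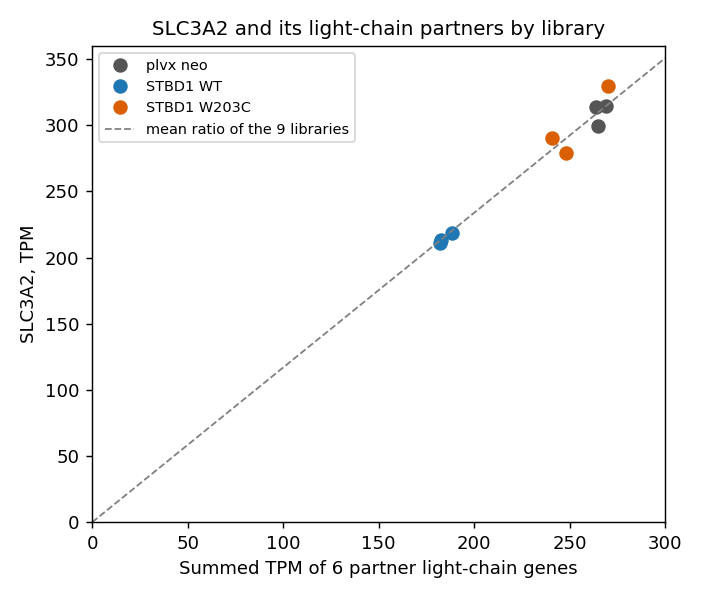
TPM of SLC3A2 against the summed TPM of 6 light-chain genes, 1 point per library, with groups as labelled and axes from 0. The dashed line has the slope of the mean ratio of the 9 libraries, 1.17. The 3 libraries labelled STBD1 WT lie at the lower end of the line, with the other 6 together near its upper end.

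SLC7A1 (ENSG00000139514, chromosome 13, 29509414 to 29595688, minus strand), the carrier of arginine and lysine, was at 23.8, 25.3 and 24.2 TPM in the plvx neo libraries. It was at 18.5, 19.0 and 20.5 in those labelled STBD1 WT and at 21.4, 21.9 and 22.8 in those labelled STBD1 W203C. The 3 groups did not overlap, in the same order as for SLC7A11. Its log2 fold change was -0.32 in STBD1 WT vs plvx neo (SE 0.0412, adjusted p = 8.30e-06) and 0.16 in STBD1 W203C vs STBD1 WT (SE 0.0430, adjusted p = 0.00854). Against plvx neo, SLC7A1 fell by 0.17 in the libraries labelled STBD1 W203C (SE 0.0405, adjusted p = 0.0136), which did not pass without STBD1 W203C replicate 1 (adjusted p = 0.115) or replicate 2 (adjusted p = 0.0727).

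The sodium-dependent exchangers SLC1A4 and SLC1A5 are close relatives with levels far apart. SLC1A5 (ENSG00000105281, chromosome 19, 46774883 to 46788594, minus strand) was at 128, 130 and 133 TPM in the plvx neo libraries, 110, 103 and 105 in those labelled STBD1 WT and 126, 124 and 134 in those labelled STBD1 W203C. Only the libraries labelled STBD1 WT stood apart, with a log2 fold change of -0.30 in STBD1 WT vs plvx neo (SE 0.0378, adjusted p = 6.60e-06) and of 0.23 in STBD1 W203C vs STBD1 WT (SE 0.0415, adjusted p = 2.69e-04). The log2 fold change of STBD1 W203C vs plvx neo was -0.075 (95% interval -0.15 to 0.0051, adjusted p = 0.300).

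SLC1A4 (ENSG00000115902, chromosome 2, 64988477 to 65023865, plus strand), which carries alanine, serine and cysteine, was at 1.90, 2.60 and 2.06 TPM in the plvx neo libraries, 1.35, 1.41 and 1.56 in those labelled STBD1 WT and 1.52, 1.59 and 2.11 in those labelled STBD1 W203C. The libraries labelled STBD1 WT lay below plvx neo, and those labelled STBD1 W203C overlapped both. These levels rest on 96 to 211 expected counts per library, and the SEs are correspondingly wide. Its log2 fold change was -0.55 in STBD1 WT vs plvx neo (SE 0.133, adjusted p = 0.00402), close in size to that of SLC7A5. It was 0.20 in STBD1 W203C vs STBD1 WT (95% interval -0.098 to 0.50, adjusted p = 0.325) and -0.35 in STBD1 W203C vs plvx neo (95% interval -0.64 to -0.064, adjusted p = 0.154), and neither passed.

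SLC38A1 and SLC38A2, sodium-coupled carriers of glutamine and alanine, lie near each other on chromosome 12 (46183063 to 46270017 for SLC38A1, ENSG00000111371, and 46358188 to 46372773 for SLC38A2, ENSG00000134294, both on the minus strand). SLC38A1 was at 43.8, 51.9 and 45.5 TPM in the plvx neo libraries, 36.4, 38.7 and 38.5 in those labelled STBD1 WT and 45.8, 47.0 and 45.9 in those labelled STBD1 W203C. It followed the pattern of SLC1A5, with the libraries labelled STBD1 WT below all others. Its log2 fold change was -0.31 in STBD1 WT vs plvx neo (SE 0.0374, adjusted p = 4.17e-06), 0.27 in STBD1 W203C vs STBD1 WT (SE 0.0351, adjusted p = 9.19e-06) and -0.046 in STBD1 W203C vs plvx neo (95% interval -0.12 to 0.032, adjusted p = 0.563).

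SLC38A2 was at 241, 307 and 278 TPM in the plvx neo libraries, 296, 271 and 311 in those labelled STBD1 WT and 317, 339 and 290 in those labelled STBD1 W203C. All groups overlapped. It was the 1 gene of the 10 with a positive log2 fold change in STBD1 WT vs plvx neo, 0.12 (95% interval 0.020 to 0.22), which did not pass (adjusted p = 0.0689) but did without plvx neo replicate 2 (adjusted p = 0.0195) or without STBD1 WT replicate 2 (adjusted p = 0.0259). Between the constructs, STBD1 W203C vs STBD1 WT, its log2 fold change was 0.055 (95% interval -0.035 to 0.14, adjusted p = 0.374). Against plvx neo it was 1.13-fold higher in the libraries labelled STBD1 W203C, with a log2 fold change of 0.17 and an SE of 0.0441 (adjusted p = 0.0192). That call did not pass without plvx neo replicate 1 (adjusted p = 0.121) or replicate 3 (adjusted p = 0.0589), nor without STBD1 W203C replicate 1 (adjusted p = 0.113) or replicate 2 (adjusted p = 0.119).

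SLC6A9 (ENSG00000196517, chromosome 1, 43991500 to 44031467, minus strand), the glycine transporter GLYT1, was at 120, 126 and 137 expected counts in the plvx neo libraries, 94.3, 83.0 and 88.0 in those labelled STBD1 WT and 85.0, 86.2 and 80.2 in those labelled STBD1 W203C. In counts both constructs were below plvx neo and overlapped each other. In TPM the libraries labelled STBD1 W203C (2.78, 3.13 and 2.01) overlapped those of plvx neo (2.89, 2.96 and 3.15), and those labelled STBD1 WT (2.32, 1.44 and 2.07) stayed below plvx neo. The mean transcript length that the tables give for SLC6A9, by which TPM is scaled, moved with this, from 2452 to 2678 bases in the plvx neo libraries to 2737 to 2840 in those labelled STBD1 WT and 1978 to 2603 in those labelled STBD1 W203C. The log2 fold change of the counts was -0.48 in STBD1 WT vs plvx neo (SE 0.164, adjusted p = 0.0340), and did not pass without plvx neo replicate 3 (adjusted p = 0.133) or without STBD1 WT replicate 2 (adjusted p = 0.203). It was -0.0027 in STBD1 W203C vs STBD1 WT (95% interval -0.37 to 0.37, adjusted p = 0.993) and -0.49 in STBD1 W203C vs plvx neo (95% interval -0.79 to -0.18, adjusted p = 0.0519). Exons of SLC6A9 overlap those of CCDC24 on the opposite strand, a gene at 10.9 to 17.0 TPM and so above SLC6A9 itself, and the division of reads between them is uncertain because the use of strand is not stated.

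SLC43A1 (ENSG00000149150, chromosome 11, 57484534 to 57515780, minus strand), the uniporter LAT3, was at 2.18, 2.36 and 2.39 TPM in the plvx neo libraries, 2.20, 2.10 and 2.09 in those labelled STBD1 WT and 1.77, 3.20 and 2.07 in those labelled STBD1 W203C. The groups overlapped throughout in TPM. In expected counts, not scaled for depth, plvx neo libraries were at 85, 103 and 83 and those labelled STBD1 WT at 77, 87 and 74. Those labelled STBD1 W203C were below both, at 72, 72 and 68. The mean transcript length was 2185 to 2506, 2104 to 2417 and 1662 to 2598 bases in these groups. Mean TPM in STBD1 W203C was 1.02 times that of plvx neo and 1.10 times that of STBD1 WT, against the direction of the counts. The log2 fold changes of the SLC43A1 counts were -0.14 (95% interval -0.48 to 0.19), -0.080 (-0.44 to 0.28) and -0.23 (-0.57 to 0.11) in the 3 comparisons. Adjusted p was 0.557, 0.777 and 0.495, so a change of the size seen for SLC7A1 would lie inside each interval.

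The genes whose pattern over the 9 libraries was most like that of each transporter were then listed. Likeness was the root mean square difference in log2 CPM (counts per M) after each gene was centred on its own mean, among 11317 other genes (11318 for SLC43A1) at a mean of 5 CPM or more, and smaller is more alike. It is a description over libraries of 3 lines and is given with no p. SLC7A5 and SLC3A2 were each other's nearest gene of all, at 0.0277. For no other member was the nearest gene a member. SLC7A11 was nearest to MTHFD2 (0.0782), XPOT (0.0842) and GARS1 (0.0845), and its nearest member was SLC1A4 (0.129), for which JDP2 (0.0884), CENPK and DUSP6 were closer. MTHFD2 is an enzyme of mitochondrial folate metabolism, XPOT exports tRNA from the nucleus and GARS1 charges it with glycine. After SLC3A2, SLC7A5 was nearest to CDC25A (0.0460), HSPA8 and MARS1, and after SLC7A5, SLC3A2 was nearest to GINS2 (0.0608), CDC25A and PHF5A. SLC7A1 was nearest to COPS3 (0.0307), PBK and DDX55, SLC1A5 to NCAPH (0.0209), EZH2 and RPF1, and SLC38A1 to TMEM216 (0.0263), KPNB1 and USP39. Among members, SLC1A5 and SLC38A1 were nearest to each other at 0.0670, and SLC7A1 was nearest to SLC1A5 at 0.0741. Many other genes were closer, with SLC38A1 481st in the order of SLC1A5. SLC1A5 was 388th in the order of SLC38A1 and 350th in that of SLC7A1. SLC38A2 was nearest to SNX19 (0.0383), ZNF518B and ARHGAP26, and its nearest member, SLC38A1 (0.185), was 8553rd in its order. SLC6A9 was nearest to HOXA13 (0.123), GNB1L and HOXD8, and SLC43A1 to GOLGA8N (0.0528), RO60 and TRIP11. SLC7A1 was the nearest member to both (0.223 and 0.145), 432nd in the order of SLC6A9 and 3407th in that of SLC43A1. For SLC38A2 and SLC43A1 the distance to the nearest member exceeded the root mean square of the centred gene itself, 0.103 and 0.126.

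Other amino acid transporter genes were counted in the same fits for comparison. Of 30 further plasma-membrane carriers, 13 had enough counts to be tested. In STBD1 WT vs plvx neo 1 of them was higher and 2 were lower, between the constructs (STBD1 W203C vs STBD1 WT) 1 was higher and 2 were lower, and in STBD1 W203C vs plvx neo none was higher and 2 were lower. Of all genes tested in these comparisons, in this order, 13.9%, 14.5% and 3.03% were called higher and 13.9%, 13.4% and 2.67% lower. The median log2 fold changes of the 13 carriers were 0.013, -0.039 and -0.018. SLC1A3, a glutamate and aspartate carrier, fell by 0.84 on the log2 scale in STBD1 WT vs plvx neo (adjusted p = 9.24e-05), and STBD1 W203C vs plvx neo gave a log2 fold change of -0.58 (adjusted p = 0.00768). SLC43A2, a relative of SLC43A1, was 0.28 higher in STBD1 WT vs plvx neo (adjusted p = 0.00506). SLC7A6, another light chain of SLC3A2, fell by 0.16 in STBD1 WT vs plvx neo (adjusted p = 0.0232) and was 0.15 higher in STBD1 W203C vs STBD1 WT (adjusted p = 0.0342). SLC1A1, a further glutamate carrier, and SLC6A6, the taurine carrier (named after its values were seen), fell by 0.33 (adjusted p = 0.00770) and 0.37 (adjusted p = 8.00e-06) in STBD1 W203C vs STBD1 WT.

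Of 16 carriers of mitochondrial and lysosomal membranes, 15 were tested. In STBD1 WT vs plvx neo 3 were higher and 2 lower, between the constructs (STBD1 W203C vs STBD1 WT) 3 were higher and 1 lower, and in STBD1 W203C vs plvx neo 2 were higher and none lower. Of all genes tested in these comparisons, in this order, 13.9%, 14.5% and 3.03% were called higher and 13.9%, 13.4% and 2.67% lower. The medians of the log2 fold changes of the 15 carriers were -0.0070, 0.078 and 0.011. SLC25A38, the mitochondrial glycine carrier, fell by 0.22 in STBD1 WT vs plvx neo (adjusted p = 0.0127) and was 0.39 higher in STBD1 W203C vs STBD1 WT (adjusted p = 1.18e-04). SLC25A22, a mitochondrial glutamate carrier, was higher in all 3 comparisons, by 0.14 (adjusted p = 0.0428), 0.19 (adjusted p = 0.00368) and 0.32 (adjusted p = 1.59e-04). SLC25A29, a mitochondrial carrier of basic amino acids, was 0.20 higher in STBD1 WT vs plvx neo (adjusted p = 0.0189) and fell by 0.24 in STBD1 W203C vs STBD1 WT (adjusted p = 0.00256). SLC15A4, a lysosomal histidine and peptide carrier, was 0.21 higher in STBD1 WT vs plvx neo (adjusted p = 0.0387).

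Of 15 genes of the response to amino acid shortage, 13 were tested. In STBD1 WT vs plvx neo 2 were higher and 7 lower, with a median log2 fold change of -0.30, and in STBD1 W203C vs plvx neo 1 was higher and 7 lower, with a median of -0.26. In STBD1 W203C vs STBD1 WT 4 were higher and 3 lower, with a median of 0.039. The shares of all genes tested called higher and lower were 13.9% and 13.9% in STBD1 WT vs plvx neo. They were 3.03% and 2.67% in STBD1 W203C vs plvx neo, and 14.5% and 13.4% in STBD1 W203C vs STBD1 WT. ASNS (asparagine synthetase) was at 195, 202 and 198 TPM in the plvx neo libraries, 77.1, 78.0 and 74.3 in those labelled STBD1 WT and 129, 124 and 153 in those labelled STBD1 W203C. Its groups did not overlap, and its log2 fold changes were -1.45, 0.85 and -0.61 (adjusted p = 1.42e-15 for STBD1 WT against plvx neo, 4.33e-09 for STBD1 W203C against STBD1 WT and 1.31e-07 for STBD1 W203C against plvx neo). PSAT1 and PHGDH, enzymes of serine synthesis, had log2 fold changes of -1.31 and -0.95 in STBD1 WT vs plvx neo, 0.72 and 0.60 in STBD1 W203C vs STBD1 WT, and -0.60 and -0.35 in STBD1 W203C vs plvx neo, all with an adjusted p below the threshold. CHAC1, which degrades glutathione, had log2 fold changes of -0.85 in STBD1 WT vs plvx neo (adjusted p = 1.71e-05) and -0.68 in STBD1 W203C vs plvx neo (adjusted p = 0.00262). Members went in both directions, and ATF3, a stress-induced transcription factor named after its values were seen, was 0.53 higher in STBD1 WT vs plvx neo (adjusted p = 1.07e-07). In the same comparison ATF4 itself fell by 0.30 (adjusted p = 2.60e-06). Its log2 fold change was 0.039 in STBD1 W203C vs STBD1 WT (adjusted p = 0.448) and -0.26 in STBD1 W203C vs plvx neo (adjusted p = 1.47e-05). DDIT3, which encodes CHOP, had a log2 fold change of 0.067 in STBD1 WT vs plvx neo (adjusted p = 0.677). ATF4 and DDIT3 were also named after their values were seen.

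**Figure D5:**
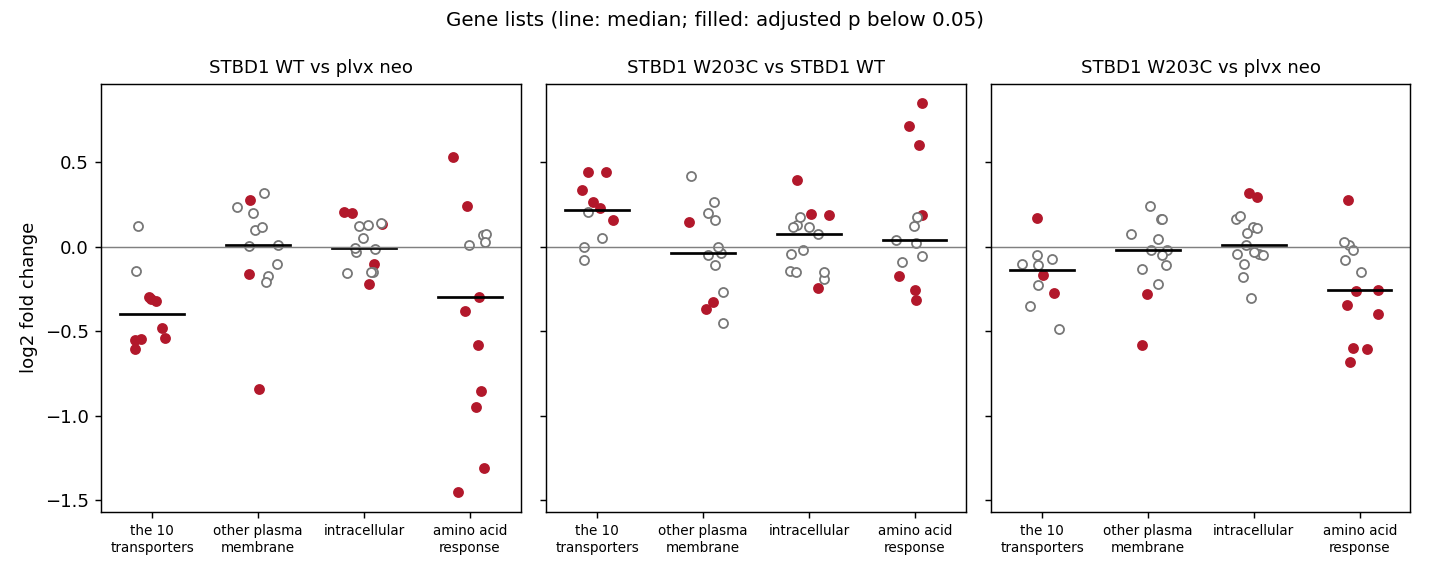
log2 fold change of the tested genes of 4 lists in each comparison: the 10 transporters, 13 other plasma-membrane carriers, 15 intracellular carriers and 13 genes of the amino acid response. Points are genes, filled red where the adjusted p is below 0.05, and lines are medians. In STBD1 WT vs plvx neo the median of the 10 transporters is -0.40, and those of the other plasma-membrane and intracellular carriers are 0.013 and -0.0070. The lists were chosen with earlier results of these data known.

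Of 5 leukocyte and 6 fibroblast markers, CD68 and COL1A1 had enough counts to be tested in STBD1 WT vs plvx neo and in STBD1 W203C vs STBD1 WT, and they moved with the groups, with log2 fold changes of 1.01 and 0.48 in STBD1 WT vs plvx neo and -1.48 and -0.49 in STBD1 W203C vs STBD1 WT (all 4 with an adjusted p below the threshold). The defining markers PTPRC, CD3E, COL1A2, DCN and LUM were at or near 0 in all libraries, at no more than 0.06 TPM. Of 6 colon epithelial markers, 3 (CDH1, KRT19 and CLDN4) were higher and 3 (EPCAM, KRT8 and KRT18) lower in STBD1 WT vs plvx neo. In STBD1 W203C vs STBD1 WT 1 of them was higher and 3 were lower. Of all genes tested, 13.9% were called higher and 13.9% lower in the former comparison, and 14.5% and 13.4% in the latter. The part of CD68, COL1A1 and the epithelial markers in the transporter results was not tested.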

How the data were processed

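RNA-seq of 9 HCT116 libraries was analysed, in 3 groups of 3 taken from the sample titles, which the series design calls biological replicates. According to the methods of the study, TRIzol RNA was made into NEBNext Ultra libraries and sequenced as read pairs. The authors aligned reads to hg38 with STAR 2.7.1a (Ensembl gene models) and ran RSEM 1.3.1. Use of strand is not given in the sources used here. The deposited tables hold 1 expected count per gene, for which the authors' RSEM run split reads among the transcripts they fit. The same deposited tables hold TPM, which the authors' RSEM run scaled by transcript length and to a fixed total.

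Symbols from a name table matched 57754 of 58395 identifiers (98.9%). Expected counts were rounded. The 6 libraries of each comparison were filtered (filterByExpr), scaled by TMM and tested with the two-sided quasi-likelihood F-test of edgeR 4.0.16 in R 4.3.3, and p-values were adjusted by Benjamini-Hochberg over all genes tested, at a threshold of 0.05. Replicate spread (biological coefficient of variation) was 4.05% to 4.21%. Positions and overlaps are from GENCODE 44 (GRCh38), and not every overlap is reported here. TPM ratios were compared by exact permutation. The fit was tested on simulated data. Log2 CPM used a prior count of 2. Alternatives were RLE scaling, library totals, no filter, DESeq2 1.42.0, limma 3.58.1 on log2(TPM + 1) and log2(TPM + 0.1) for genes of at least 1 TPM, 1 fit of all libraries, a replicate block and leaving out each library.

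The members, lists and tests were chosen with earlier results of these data known. Named genes were the 10 members, the nearest member and the 3 nearest genes to each, and, from each other list, the genes called in any comparison with the 4 largest absolute log2 fold changes in STBD1 WT vs plvx neo. Others are marked as named after their values were seen.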

Additional observations from a re-analysis of the deposited data

How the results depend on the processing

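Over 14 or 15 alternatives per gene, 130 of 141 gene values in STBD1 WT vs plvx neo, 128 of 141 in STBD1 W203C vs STBD1 WT and 122 of 141 in STBD1 W203C vs plvx neo kept their direction and side of the threshold. SLC7A5, SLC3A2, SLC1A5 and SLC38A1 passed in every alternative run of STBD1 WT vs plvx neo and of STBD1 W203C vs STBD1 WT, and SLC7A11 and SLC7A1 in every one of STBD1 WT vs plvx neo. With limma on log2(TPM + 1), SLC7A11 (adjusted p = 0.0589) and SLC7A1 (adjusted p = 0.107) did not pass in STBD1 W203C vs STBD1 WT, nor SLC1A4 (adjusted p = 0.127) and SLC6A9 (adjusted p = 0.0897) in STBD1 WT vs plvx neo, where SLC6A9 passed in 9 of 14 alternatives. With DESeq2, SLC6A9 did not pass in STBD1 WT vs plvx neo (adjusted p = 0.0966), nor SLC38A2 in STBD1 W203C vs plvx neo (adjusted p = 0.167). In STBD1 W203C vs plvx neo, SLC7A11 and SLC7A1 each passed in 10 of 14 alternatives and SLC38A2 in 7. That comparison called 5 of the 10 genes without the filter on low counts and 0 with limma on TPM at either pseudocount, where 1 gene had an unadjusted p below 0.05 against 7 with edgeR and 5 with DESeq2. Leaving out single libraries gave 0 to 5. The cause was not tested.

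Over all genes, limma on log2(TPM + 1) and log2(TPM + 0.1) called 1746 and 1700 genes in STBD1 WT vs plvx neo (4254 with edgeR), 1818 and 1797 in STBD1 W203C vs STBD1 WT (4202) and 130 and 120 in STBD1 W203C vs plvx neo (859). With limma on log2(TPM + 1) the split in STBD1 W203C vs STBD1 WT was 1264 higher to 554 lower, against 2178 to 2024 with edgeR, and in STBD1 W203C vs plvx neo 96 to 34, against 457 to 402. Leaving out single libraries gave 459 to 818 genes in STBD1 W203C vs plvx neo, with 459 without plvx neo replicate 3, 501 without STBD1 W203C replicate 1 and 543 without STBD1 W203C replicate 2.

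Directions turned only for uncalled values in STBD1 W203C vs STBD1 WT. For SLC6A9 (-0.0027) the log2 fold change was 0.0010 with the replicate block, 0.31 and 0.43 with limma on log2(TPM + 1) and log2(TPM + 0.1), and -0.18 to 0.13 when single libraries were left out. For SLC43A1 (-0.080) it was 0.074 and 0.091 with limma. The ratio of SLC3A2 to its partners without SLC7A5, 11.6, 9.83 and 11.6, is larger by construction.

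Replicate numbers are shared between groups, and the deviations of same-numbered libraries correlated weakly (-0.013 to 0.068 over 9 pairs). Pairs of different number gave -0.10 to 0.074 over 18 pairs. These values cannot show whether same-numbered libraries also shared a culture round or batch. With the replicate block 9, 6 and 3 of the 10 genes were called, against 8, 6 and 3 without it. The added gene was SLC38A2 (adjusted p = 0.0335). Over all genes 4400, 3662 and 1003 were called with the block, against 4254, 4202 and 859 without it. Depth limits SLC1A4, SLC6A9 and SLC43A1 most, and 3 libraries a group limit every interval. No group held enough libraries for an outlier test.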
